A study of Mus musculus with 3 samples.

Results

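The miR-23, miR-27 and miR-24 microRNAs (miRNAs) are made from 2 paralogous clusters of hairpins in the mouse genome, here called the a cluster (miR-23a, miR-27a and miR-24-2) and the b cluster (miR-23b, miR-27b and miR-24-1). The 10 miRNAs described were chosen by name, as listed mature forms of these clusters, out of 1915 mature miRNAs in the deposited tables. Of the 10, 4 come from the a cluster alone, 5 from the b cluster alone, and miR-24-3p is the product of both. Small RNA was sequenced from the retina of C57BL/6 mice of 3 ages, named P1, P7 and P17 for the days after birth, and the labels name no treatment and no genetic change. Each age is 1 library made from the pooled retinas of 5 eyes, so differences between ages carry no replicate check and were not tested. The libraries held 11426320, 12759995 and 11659722 miRNA reads at P1, P7 and P17. Levels are the deposited RPM values, which give the reads of a miRNA per 1000000 miRNA reads of its library. Intervals cover counting error only, since 1 library per age gives no spread between samples. Reads copied by PCR without molecular identifiers are not independent molecules, so the intervals may be too narrow even for counting error.

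A miRNA hairpin is cut by Drosha and Dicer into a duplex whose arms are named 5p and 3p, and usually 1 arm, the guide strand, is loaded into Argonaute while the other is degraded. The guide recognises messenger RNAs mainly through its seed, bases 2 to 8. The 3p arms of miR-23, miR-27 and miR-24 are the usual guides, and the clusters are known from endothelial cells and other vessel-wall cells, where miR-23 and miR-27 promote vessel sprouting by repressing inhibitors of angiogenic signalling such as Sprouty2 and Sema6A. Retinal vessels of the mouse grow over the retina and into its deeper layers after birth, within the ages sampled here.

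The a cluster lies on chromosome 8 of GRCm38, the same build as mm10, at chr8:84208518-84208921 on the plus strand. Its hairpins Mir23a (ENSMUSG00000065611), Mir27a (ENSMUSG00000065444) and Mir24-2 (ENSMUSG00000065541) span 404 bases, separated by 79 and 56 bases, and lie in no annotated protein-coding gene. The last 2 bases of Mir24-2 fall on an exon of Gm26532, a long non-coding RNA gene. The b cluster lies at chr13:63300484-63301275, also on the plus strand, and spans 792 bases. Its hairpins Mir23b (ENSMUSG00000065599), Mir27b (ENSMUSG00000065475) and Mir24-1 (ENSMUSG00000105904) lie within the protein-coding gene 2010111I01Rik on the same strand. Mir23b is intronic there, whereas Mir27b and Mir24-1 overlap exons that the annotation gives only to transcripts without a regular coding role (nonsense-mediated decay and, for Mir24-1, also processed or intron-retaining transcripts). All 3 also lie in an intron of Fancc, which is read from the opposite strand.

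**Figure D1:**
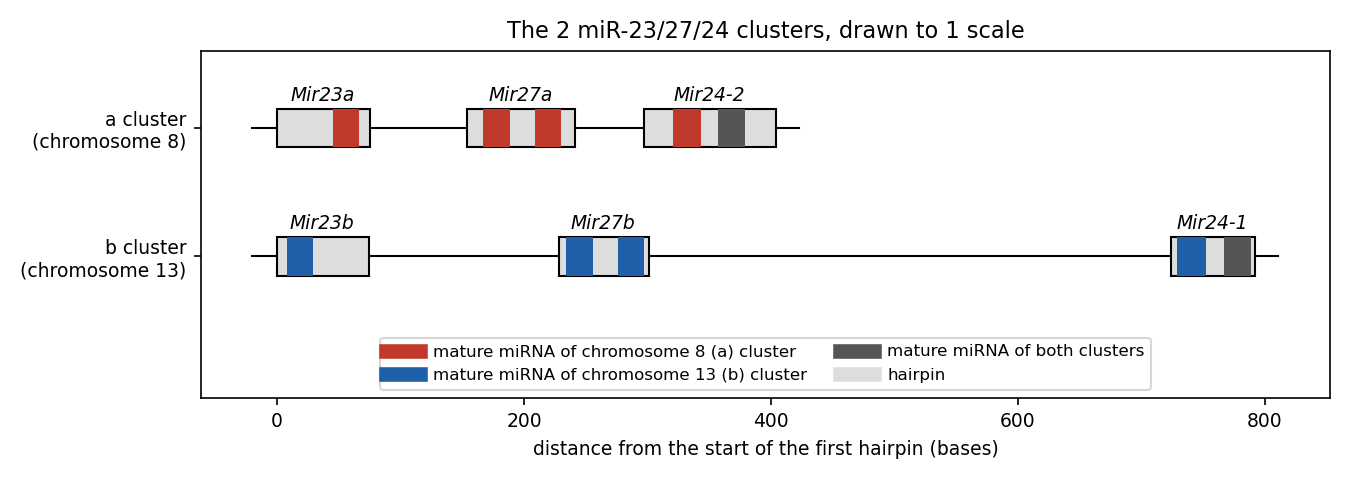
Map of both clusters to 1 scale, with the distance in bases from the start of the first hairpin on the horizontal axis. Grey boxes are hairpins and coloured boxes mature miRNAs (miR-23b-3p and miR-23a-5p are not drawn). The a cluster spans 404 bases and the b cluster 792, and the arm in dark grey, miR-24-3p, is present in both.

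The mature sequences below are from RefSeq (GRCm38.p6), 5′ to 3′, with the seed in capitals. The table held 9 of the 10 miRNAs, all but miR-23b-3p. They are shown because the bases at which the a and b forms differ are what separates the reads of the clusters. The last, miR-128-3p, is shown for its shifted copy of the miR-27 seed.
miR-23a-3p: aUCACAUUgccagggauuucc
miR-27a-3p: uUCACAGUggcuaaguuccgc
miR-27b-3p: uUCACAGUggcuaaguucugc
miR-24-3p: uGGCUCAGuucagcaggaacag
miR-24-2-5p: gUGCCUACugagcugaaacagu
miR-24-1-5p: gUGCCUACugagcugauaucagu
miR-27a-5p: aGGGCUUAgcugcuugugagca
miR-27b-5p: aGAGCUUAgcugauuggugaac
miR-23b-5p: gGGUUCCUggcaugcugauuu
miR-128-3p: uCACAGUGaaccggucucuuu

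The miR-27 guides of the clusters are nearly the same molecule. From miR-27a-3p to miR-27b-3p 20 of 21 bases are identical, and the single difference is C19U, with positions counted from 1 at the 5′ end. The seeds of miR-23a-3p and miR-27a-3p differ by 1 base, U7G. MiR-24-2-5p and miR-24-1-5p share their seed and their first 16 bases, so a read can be given to chromosome 8 or 13 only by its last bases. MiR-27a-5p and miR-27b-5p differ at 8 of 22 bases, 1 of them in the seed (G3A). The counting rule was not given in the sources used here, so the part of the reads that could have been split wrongly between these pairs was not tested, and each a to b comparison below carries that uncertainty.

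The b cluster guide miR-27b-3p was the most abundant of the 10 at every age and the a cluster guide miR-23a-3p the least abundant 3p arm. All 10 passed the abundance filter, which asked for a mean of 1 RPM or more, as did 648 of the 1915 miRNAs. Together they took 0.737%, 0.476% and 0.704% of all miRNA reads at the 3 ages in order. The star strand miR-23a-5p, which is not among the 10, was listed with 0 reads at each age, which allows a level of up to 0.263, 0.235 and 0.257 RPM (a limit of 3 reads).

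The 3p guides all had a lower RPM at P7 than at P1 and P17, although with median-of-ratios size factors all 5 were higher at P7 than at P1. The level of mmu-miR-27b-3p was 3771 RPM in the P1 library (43083 reads), with a 95% Wilson interval of 3735 to 3806. In the P7 library it was 2504 RPM (2476 to 2531), and in the P17 library 3567 RPM (3533 to 3601). The level of mmu-miR-24-3p was 2873, 1742 and 2596 RPM in the same order (32826, 22228 and 30271 reads). For both, in RPM, the P7 library was the lowest and the P1 library the highest, with no overlap of the intervals, whereas with size factors P1 was the lowest and P17 the highest. In bulk retina, fewer cells that make a miRNA and less of it per cell cannot be told apart.

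The other 3 guides had their highest level at P17 in RPM as well as with size factors. The level of mmu-miR-23b-3p was 299 RPM (289 to 309) at P1, 262 RPM (253 to 271) at P7, and 350.2 RPM (339.6 to 361) at P17. The level of mmu-miR-27a-3p was 299.8 RPM (289.9 to 310.0), then 170.1 RPM (163 to 177), then 364 RPM (354 to 375). The level of mmu-miR-23a-3p was 42.3 RPM (483 reads, 38.7 to 46.2), then 32.8 RPM (418 reads, 29.8 to 36.1), then 83.1 RPM (969 reads, 78.0 to 88.5). In each case the 3 intervals did not overlap, and of these 3 guides miR-23a-3p had the largest fold from P1 to P17 (1.94 on the scale of RPM + 1).

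The 5p arms had fewer reads than the 3p arm of their hairpin, from 22.8 times fewer for miR-27a at P1 to 603 times fewer for miR-27b at P17. MiR-24-2-5p, the a cluster star of miR-24, had 45.0, 30.3 and 51.8 RPM from P1 to P17 (514, 386 and 604 reads). MiR-24-1-5p, its b cluster counterpart, had 10.1, 7.37 and 16.5 RPM (115, 94 and 192 reads). In RPM both had the lowest level at P7 and the highest at P17 (with size factors both were higher at P7 than at P1). The P1 interval of miR-24-2-5p (41.3 to 49.0 RPM) overlapped that of P17 (47.8 to 56.1). The P1 interval of miR-24-1-5p (8.39 to 12.1) overlapped that of P7 (6.02 to 9.01). The exact intervals of the log2 ratios in RPM, without a pseudocount, nevertheless excluded no change. They were 0.03 to 0.38 for miR-24-2-5p from P1 to P17, and -0.86 to -0.04 for miR-24-1-5p from P1 to P7.

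The star strands of miR-27 and miR-23b instead had their highest RPM at P1, although with size factors miR-27a-5p and miR-27b-5p were higher at P17 than at P1, by 0.31 and 0.18 on the log2 scale. MiR-27a-5p had 13.1, 7.29 and 8.06 RPM (150, 93 and 94 reads). MiR-27b-5p had 10.6, 5.02 and 5.92 RPM (121, 64 and 69 reads). MiR-23b-5p had 4.99, 1.25 and 1.11 RPM (57, 16 and 13 reads), and at P17 its interval of 0.652 to 1.91 RPM lay above the limit of detection. For these 3 the P7 and P17 intervals overlapped each other.

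**Figure D2:**
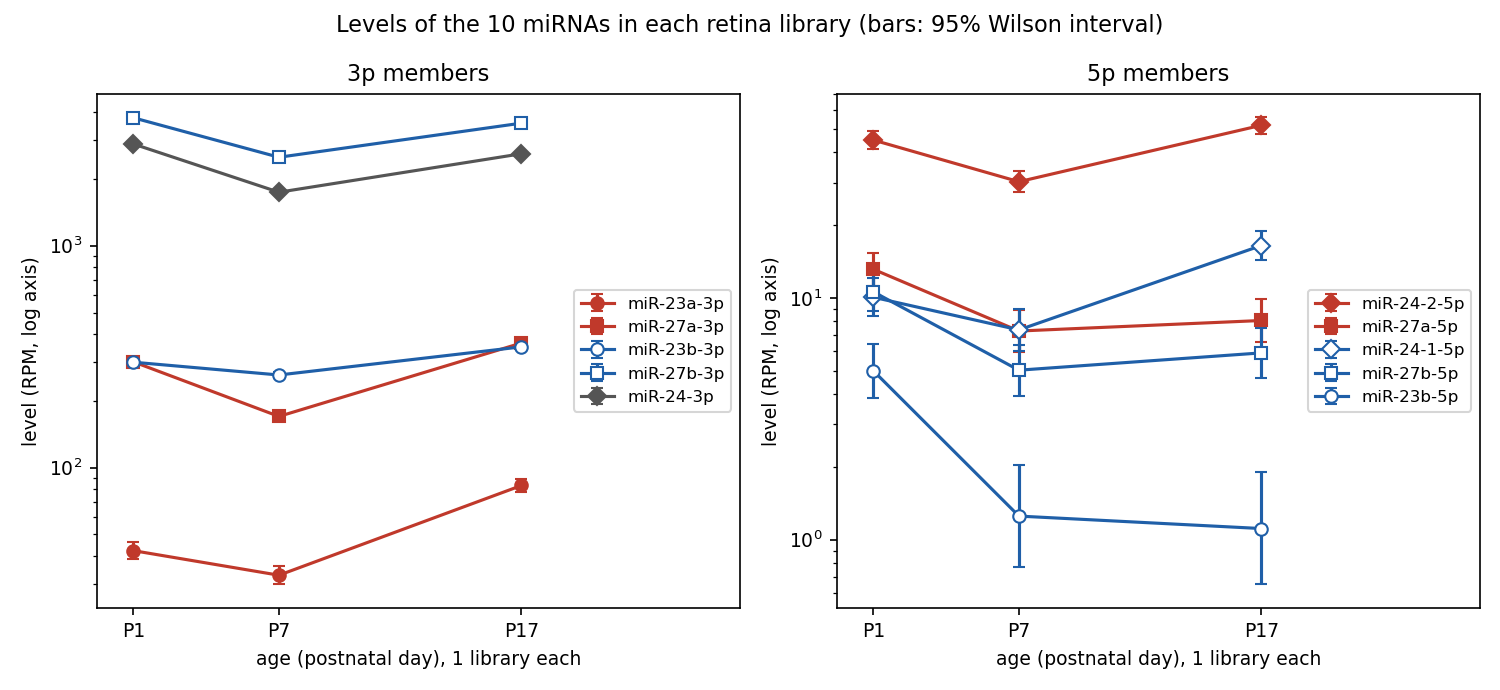
Level of each miRNA (RPM, log axis) against age in days, 3p arms on the left and 5p arms on the right, 1 library per point with its 95% Wilson interval. Red marks the a cluster, blue with open symbols the b cluster and grey miR-24-3p. In RPM the 5 3p arms have their lowest point at P7 (with size factors they were higher there than at P1), and miR-27b-3p lies at 3771, 2504 and 3567 RPM.

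Some neighbours in the order of levels had counting intervals that overlapped. At P1 these were miR-27a-3p and miR-23b-3p, then miR-24-2-5p and miR-23a-3p, and then miR-27a-5p, miR-27b-5p and miR-24-1-5p, each beside the next. At P7 miR-23b-3p was above miR-27a-3p beyond the intervals, while miR-23a-3p and miR-24-2-5p overlapped, as did miR-24-1-5p, miR-27a-5p and miR-27b-5p. At P17 the overlapping neighbours were miR-27a-3p with miR-23b-3p and miR-27a-5p with miR-27b-5p. MiR-23a-3p had moved clear of miR-24-2-5p, and miR-24-1-5p clear of miR-27a-5p.

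The direction of the step from P1 to P7 depended on the scaling. Changes are given as log2 of RPM + 1, which understates the change of rare miRNAs. All 10 were lower at P7, by between -0.19 for miR-23b-3p and -1.41 for miR-23b-5p, but with size factors by median of ratios, a scaling that holds the typical miRNA near no change, 8 of the 10 were higher and 2 (miR-27b-5p and miR-23b-5p) lower. The median change of all 648 miRNAs was -0.87 with RPM and -0.04 with size factors. The share of the miR-183, miR-182 and miR-96 hairpins of sensory cells was 7.85% of miRNA reads in the P1 library and 30.6% in the P7 library. With a library total that left these out, the median change of all miRNAs was -0.54, and 8 of the 10 were lower and 2 higher. In RPM 8 of the 10 lay above the median of all miRNAs, from 0.05 above for miR-27a-3p to 0.68 above for miR-23b-3p, and a scaling moves both together.

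Only miR-23b-5p was over 2-fold lower at P7, 1 of 10 members, where 44.8% of the 648 miRNAs were. None of the members was over 2-fold higher, against 3.09% of all. With size factors the members past 2-fold were 0 in each direction, against 11.0% of all miRNAs lower and 9.57% higher. Without a pseudocount the log2 ratio from P1 to P7 was -0.59 for miR-27b-3p (exact 95% interval -0.61 to -0.57), -0.72 for miR-24-3p (-0.75 to -0.70) and -0.82 for miR-27a-3p (-0.90 to -0.74). It was -1.08 for miR-27b-5p (-1.54 to -0.63), an interval that left undetermined whether this miRNA was over 2-fold lower. With size factors miR-27b-5p changed by -0.10 on the log2 scale of level + 1.

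From P7 to P17, 9 of the 10 were higher, both with RPM and with size factors, and miR-23b-5p (-0.09) was the exception. With a library total that left out 13 miRNAs, those among the 10 most abundant of any library, 7 of the 10 were higher and miR-27a-5p and miR-27b-5p were also lower. Over 2-fold higher were 3 members, against 14.0% of all 648 miRNAs, namely miR-23a-3p by 1.32, miR-27a-3p by 1.09 and miR-24-1-5p by 1.06 on the log2 scale. The first 2 are the guides of the a cluster. With the total that left out the most abundant miRNAs only miR-23a-3p (1.09) stayed over 2-fold higher, with miR-27a-3p at 0.85 and miR-24-1-5p at 0.89, and a pseudocount of 5 RPM put miR-24-1-5p at 0.80. The guides of the b cluster were higher by 0.42 (miR-23b-3p) and 0.51 (miR-27b-3p), and the shared miR-24-3p by 0.58. None was over 2-fold lower, against 11.6% of all. With size factors the same 3 members were over 2-fold higher, against 16.0% of all, and none lower, against 10.6%. The median change of all miRNAs over this step was -0.05 with RPM and 0.03 with size factors, so the scaling mattered less here than between P1 and P7.

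Over the whole period from P1 to P17 the guides other than miR-23a-3p were close to their P1 level in RPM. MiR-27b-3p changed by -0.08 and miR-24-3p by -0.15, both of which turned positive with size factors (0.97 and 0.90). MiR-23b-3p changed by 0.23, whereas miR-27a-3p changed by 0.28 and miR-23a-3p by 0.96. Of the 10, 5 were lower and 5 higher with RPM, but 1 lower and 9 higher with size factors, a scaling that raised the median of all miRNAs from -0.91 to 0.01. MiR-23b-5p (-1.51) was the only member over 2-fold lower, against 46.8% of all miRNAs, and none was over 2-fold higher, against 10.5%. With size factors 5 members were over 2-fold higher, against 25.5% of all, namely miR-23a-3p, miR-27a-3p, miR-23b-3p, miR-24-2-5p and miR-24-1-5p, and 0 were lower, against 23.9%. The median change of the members was 0.06 with RPM and 1.09 with size factors.

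**Figure D3:**
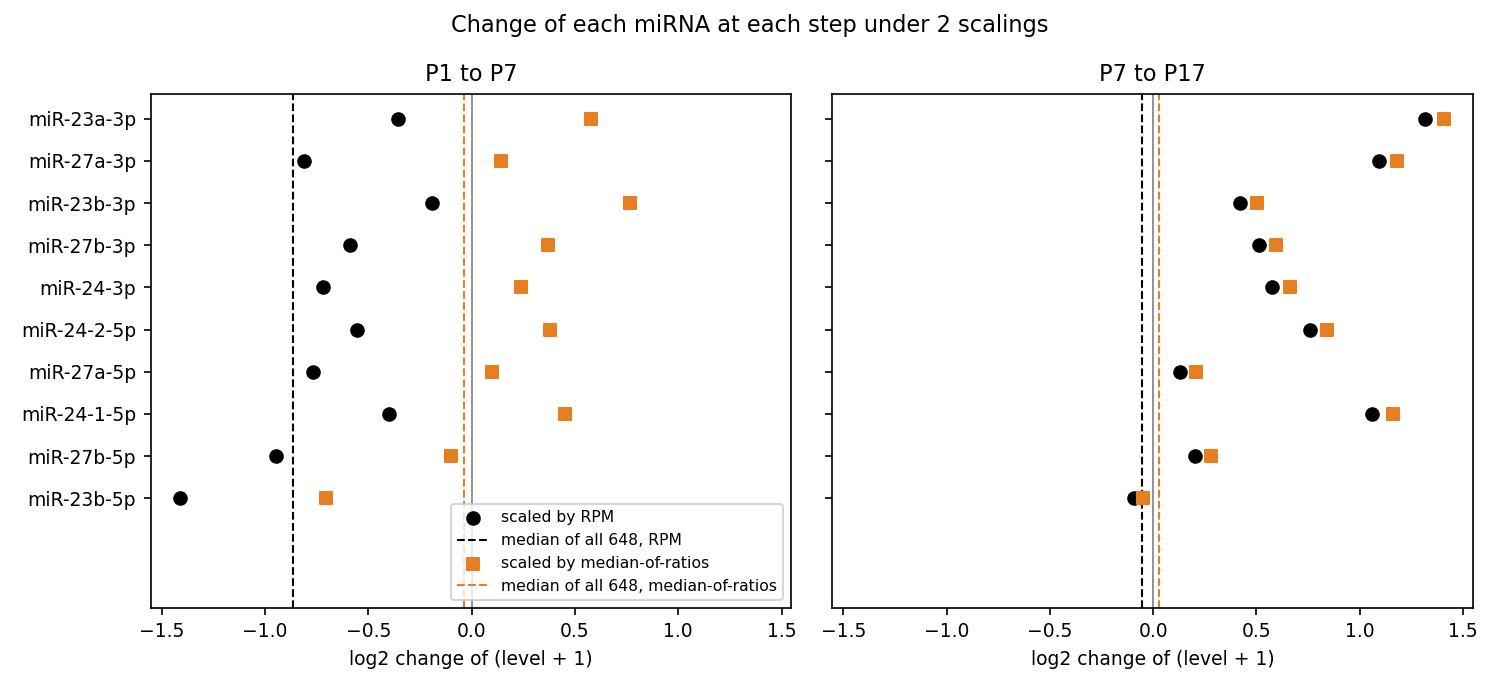
Change of each miRNA on the log2 scale of level + 1, from P1 to P7 (left) and from P7 to P17 (right), with RPM (black circles) and with median-of-ratios size factors (orange squares). Dashed lines are the medians of all 648 miRNAs under the same scaling. In the left panel the scaling moves the members and the median together, from -0.87 to -0.04 for the median, and in the right panel miR-23a-3p lies furthest to the right at 1.32 with RPM.

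The a and b clusters were then compared within each library, since a ratio of reads from 1 library depends neither on the library total nor on the scaling. For both guide families the b cluster gave most of the reads, and the a cluster gained from P7 to P17. MiR-23b-3p had 7.06 times the reads of miR-23a-3p at P1, 7.98 times at P7 and 4.21 times at P17. The a cluster share of miR-23 was thus 12.4% in the P1 library (exact 95% interval 11.4 to 13.5), then 11.1% (10.1 to 12.2), then 19.2% (18.1 to 20.3). The shares at P1 and P7 overlapped and that at P17 lay above both.

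MiR-27b-3p had 12.6 times the reads of miR-27a-3p at P1, 14.7 times at P7 and 9.79 times at P17. The a cluster share of miR-27 was 7.36% (7.13 to 7.61), 6.36% (6.11 to 6.63) and 9.27% (9.004 to 9.54), with no overlap between ages. The log2 ratio of a to b changed from P1 to P17 by 0.75 for miR-23 (Woolf 95% interval 0.57 to 0.92) and by 0.36 for miR-27 (0.29 to 0.43). The gain came after P7, at 0.92 for miR-23 (0.74 to 1.10) and 0.59 for miR-27 (0.51 to 0.67). From P1 to P7 the change was -0.18 for miR-23, with an interval that included 0 (-0.38 to 0.02), and -0.23 for miR-27 (-0.31 to -0.15).

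The summed guides gave the same picture. MiR-23a-3p and miR-27a-3p together had 342, 203 and 447 RPM from P1 to P17, and miR-23b-3p and miR-27b-3p together 4069, 2765 and 3917 RPM. Over the whole period the a sum changed by 0.39 on the log2 scale and the b sum by -0.05, or by 1.43 and 0.99 with size factors. The b sum had 11.9 times the reads of the a sum at P1, 13.6 times at P7 and 8.75 times at P17.

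In the 5p arms of miR-24, however, the a cluster had the larger share. MiR-24-3p cannot be assigned to a locus, but its 5p partners can, and the a cluster gave 81.7% of the miR-24 5p reads at P1 (exact 95% interval 78.5 to 84.7), then 80.4% (76.6 to 83.9), then 75.9% (72.8 to 78.8). For the star strands of miR-27, the a cluster share was 55.4% (49.2 to 61.4), then 59.2% (51.1 to 67.0), then 57.7% (49.7 to 65.4), so only at P7 did the interval lie above an equal share. For the 5p arms of miR-23 the b cluster had the reads, 57, 16 and 13 of miR-23b-5p against 0 of miR-23a-5p in each library.

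The direction of change differed as well. The a to b log2 ratio of the miR-24 5p arms changed by -0.51 from P1 to P17 (-0.88 to -0.13), a loss for the a cluster, while the guides of miR-23 and miR-27 showed a gain. For the miR-27 star strands the change was 0.14, and its interval of -0.43 to 0.70 left the direction undetermined at 69 to 150 reads per miRNA and library.

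**Figure D4:**
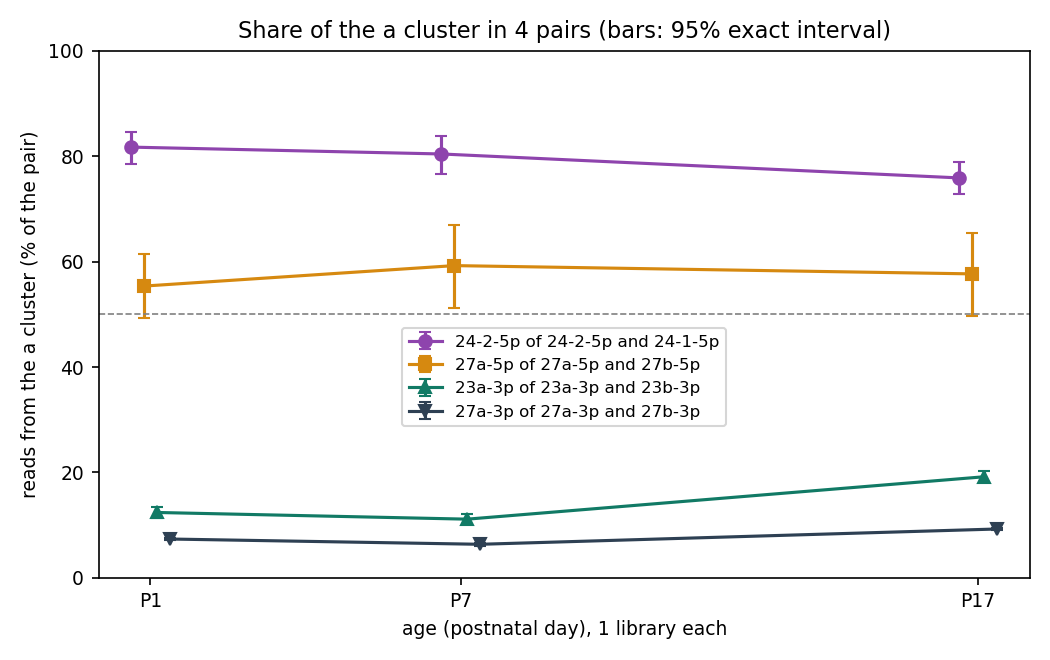
Share of reads from the a cluster (percent of each pair) against age in days for 4 pairs of miRNAs, with 95% exact binomial intervals and a dashed line at an equal share. The 5p pairs of miR-24 and miR-27 lie above the line, at 81.7% and 55.4% at P1, and the 3p pairs of miR-27 and miR-23 lie far below it, at 7.36% and 12.4%.

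Members of 1 cluster can be cut from 1 primary transcript, which was not tested here, and their reads were not in a fixed ratio. In the b cluster miR-27b-3p had 12.6 times the reads of miR-23b-3p at P1, 9.57 times at P7 and 10.2 times at P17. In the a cluster miR-27a-3p had 7.09 times the reads of miR-23a-3p at P1, 5.19 times at P7 and 4.38 times at P17. Across the whole period the log2 ratio of miR-27 to miR-23 changed by -0.31 in the b cluster (-0.38 to -0.24) and by -0.69 in the a cluster (-0.86 to -0.52). MiR-23 thus gained on miR-27 in both. Small RNA ligation favours some sequences over others, so a ratio between different miRNAs in 1 library is no ratio of molecules.

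The 5p arms of 1 cluster shifted further. MiR-24-1-5p had a share of 48.7% of the reads of miR-24-1-5p and miR-27b-5p at P1 and 73.6% at P17, a change in log2 ratio of 1.55 (1.01 to 2.09). The matching change in the a cluster, miR-24-2-5p against miR-27a-5p, was 0.91 (0.50 to 1.32).

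The balance of the arms of each hairpin changed in 2 directions. The 5p share of the miR-23b hairpin was 1.64% in the P1 library (exact 95% interval 1.25 to 2.12), then 0.477% (0.273 to 0.774), then 0.317% (0.169 to 0.542). The 5p to 3p ratio changed on the log2 scale by -2.39 from P1 to P17 (-3.26 to -1.52). The 5p share of the miR-27a hairpin was 4.20%, 4.11% and 2.16%, a change of -0.98 (-1.36 to -0.61), nearly all of it after P7. For miR-27b it was 0.280%, 0.200% and 0.166%, a change of -0.76 (-1.19 to -0.33).

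For miR-24 the 5p arms gained instead. Both 5p arms together were 1.88%, 2.11% and 2.56% of the miR-24 reads from P1 to P17, a change of 0.46 (0.30 to 0.61). Over 190 hairpins with both arms past the filter, reads in every library and arms that share a name, the change had a median of 0.16, and the 5th and 95th percentiles were -1.90 and 1.77. Of the clusters, only miR-23b, with 13 reads of its 5p arm at P17, lay outside that range. Its interval of -3.26 to -1.52 reached into the range, so counting error does not settle its place. The miR-24 value pools 5p arms of different names and is not among the 190.

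Each Mir24 hairpin overlaps an annotated miRNA hairpin on the opposite strand, Mir3074-2 on chromosome 8 and Mir3074-1 on chromosome 13. Mature miR-3074-5p shares 20 of its 22 positions with miR-24-3p at both loci, read from the other strand. Its level was 165.5, 67.7 and 22.8 RPM in age order (1891, 864 and 266 reads), a change of -2.81 from P1 to P17, where miR-24-3p changed by -0.15. Since strand use in the counting was not given in the sources used here, the reads of miR-24 and miR-3074 cannot be told apart with certainty.

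Only miR-128-3p, a neuronal miRNA, shares the miR-27 seed outside the clusters in a shifted frame, holding its 7 bases at positions 1 to 7. Among 1623 miRNAs of the tables with a RefSeq sequence, miR-27a-3p and miR-27b-3p were the only ones with that seed at positions 2 to 8. MiR-128-3p was more abundant than miR-27b-3p at each age, with 9375, 4134 and 4060 RPM in age order. It was lower at P7 than at P1 by -1.18 on the log2 scale and changed by -0.03 from P7 to P17, a step over which miR-27a-3p and miR-27b-3p were higher by 1.09 and 0.51. The seed of miR-24-3p was shared by 4 other miRNAs, which had 1 read in all.

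The guides of the clusters changed less than the miRNAs that mark vessel-wall cells. Both arms of miR-126a, made by endothelial cells, were over 2-fold higher in RPM at each step, with 1225, 3547 and 8290 RPM of miR-126a-3p in age order. The change from P1 to P17 was 2.76 for miR-126a-3p and 2.69 for miR-126a-5p. The mural cell miRNAs miR-143-3p, miR-145a-5p and miR-145a-3p changed by 2.92, 3.04 and 2.72, 3 of 3 over 2-fold higher, against 10.5% of all 648 miRNAs. The miR-145a miRNAs are arms of the same hairpin, as are those of miR-126a, so these are not independent markers. The summed level was 1261, 3643 and 8530 RPM for the endothelial and 197, 382 and 1510.2 RPM for the mural miRNAs. Over the same period the 3p arms of the clusters changed by between -0.15 and 0.96, and all 5 were lower at P7 in RPM (all 5 were higher with size factors), when the 5 vessel-wall miRNAs were higher than at P1. With size factors the vessel-wall miRNAs were higher by 3.48 to 3.96 from P1 to P17, and the guides by 0.90 to 1.98. Whether the cells that gave these reads were the same was not tested.

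**Figure D5:**
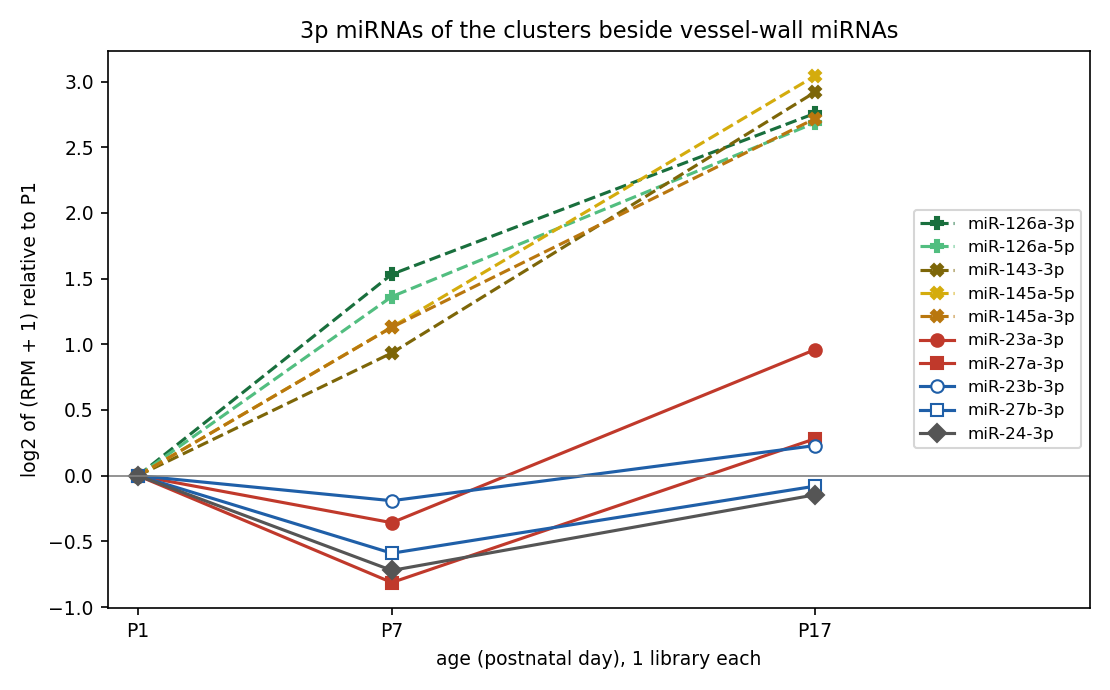
Log2 of RPM + 1 relative to P1 against age in days, for the 5 3p arms of the clusters (solid lines) and 5 miRNAs of endothelial and mural cells (dashed lines), 1 library per point. At P17 the dashed lines lie between 2.69 and 3.04 and the solid lines between -0.15 and 0.96.

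The libraries were checked against miRNAs of other cell types. Of the 21 listed markers, each had reads in all 3 libraries. The photoreceptor and sensory cell miRNAs (3 of 3) summed to 77854, 304394 and 301141 RPM in age order, and the neuronal miR-9-5p and miR-124-3p together to between 86788 and 145803 RPM. From P1 to P17 miR-9-5p changed by -0.96 and miR-124-3p by 3.05 on the log2 scale. The miRNAs listed for pigment epithelium (2) summed to between 7226 and 15211 RPM, and whether they came from that tissue alone was not tested. Their lowest RPM was at P7, as for the guides of the clusters. With size factors, however, the guides were higher at P7 than at P1. Each of the pigment epithelium miRNAs was lowest at P7 in RPM, but from P1 to P17 miR-204-5p changed by -0.70 and miR-211-5p by 3.27. The blood miRNAs (3) summed to 161, 116 and 157 RPM, and the leukocyte and microglia miRNAs (4) to between 13.6 and 35.9 RPM. In RPM the blood sum was also lowest at P7, as were miR-451a (45.5, 11.7 and 27.9 RPM) and miR-486a-5p (115, 103 and 125 RPM). MiR-144-3p was not, with 1.14, 1.18 and 4.46 RPM. The lens and cornea miRNAs (2) summed to 103, 119 and 569.6 RPM, with miR-205-5p at 31, 4 and 8 reads. The part of blood, pigment epithelium and other attached tissue in the levels of the clusters was not tested.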

How the data were processed

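RNA of the pooled retinas of 5 eyes per age (mice named C57BL/6 in the labels and C57BL/6J in the study's methods) was sequenced as small RNA libraries, 1 per age. Per the study's methods, adaptors and low-quality reads were removed from 50-nt reads and the rest aligned to mm10 with HISAT2 at default parameters, whereas the submitters' processing notes name FastQC and BWA. The miRNA annotation, the counting rule and the use of strand are not given in the sources used here. The authors deposited a raw read count for each of 1915 mature miRNAs. The deposited RPM values equal the count per 1000000 miRNA reads of the library, to within 0.0192 RPM.

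The 10 miRNAs, the marker lists and the settings were chosen with earlier results of these data known. With 1 library per age the study's DEseq criterion could not be applied, so its fold criterion of 2 was used alone, on log2(RPM + 1), for the 648 miRNAs whose mean was 1 RPM or more. All members were named. Other miRNAs were named as seed relatives, as listed markers, or as the 2 nearest in their steps to each 3p arm, and miR-3074 was added after its values were seen. Wilson, exact binomial (Clopper-Pearson) and Woolf intervals at 95% cover counting error. Size factors (644 miRNAs) were 1.50, 0.862 and 0.743 at P1, P7 and P17. TMM factors from edgeR were 1.60, 0.808 and 0.774. The fold calls and intervals were tested on simulated counts with known changes. Those counts held counting error only, so the choice of scaling and the spread between libraries were not tested. Coordinates came from GENCODE M21 and RefSeq, both GRCm38. Software was edgeR 4.0.16 in R 4.3.3, and scipy 1.17.1, matplotlib 3.10.9, pandas 2.3.3 and numpy 2.4.6 in Python 3.11.15.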

Additional observations from a re-analysis of the deposited data

How the results depend on the processing

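The a to b ratios of miR-23 and miR-27 stayed within their counting intervals under a pseudocount of 5 RPM and, for miR-27, with both arms summed. The summed guides and miR-24-3p moved with the scaling, and not with the pseudocount or, for the sums, with both arms included. From P1 to P17 the a sum (0.39 with RPM), the b sum (-0.05) and miR-24-3p (-0.15) changed by 1.43, 0.99 and 0.90 with median-of-ratios size factors and by 1.43, 0.99 and 0.90 with TMM factors. They changed by 0.77, 0.32 and 0.23 with a total that left out the 10 most abundant of any library (13 miRNAs), and by 0.79, 0.35 and 0.25 with one that left out the sensory miR-183, miR-96 and miR-182. The sign of the b sum and of miR-24-3p thus depended on the scaling. Members over 2-fold lower numbered 1 with RPM, 0 with size factors, TMM factors, a filter of 10 RPM, a pseudocount of 5 RPM or a fold criterion of 4, and 3 with a fold criterion of 1.5. Members over 2-fold higher numbered 0 with RPM, 5 with size factors and with TMM factors, and 2 with either reduced total or a fold criterion of 1.5. Of 203 values for single members and steps, 73 moved beyond counting error, all under the scalings, and 33 changed sign, 23 of them between P1 and P7. The use of no pseudocount, and the alternatives for single members, were chosen after seeing the data. The cause was not tested. Depth limits miR-23b-5p, whose 13 reads at P17 put its change since P1 between -3.16 and -1.27 on the log2 scale. No paired analysis was possible because 1 library stands for each age.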

Other observations

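The miRNAs whose course over the 3 libraries was most like that of each guide were found by the distance between their steps before and after P7 on the log2 scale of RPM + 1, among 424 miRNAs whose mean was 10 RPM or more. The nearest to miR-24-3p was miR-154-3p (distance 0.04), with 12.4, 7.29 and 11.6 RPM at P1, P7 and P17, and the next was miR-151-5p (0.06). The nearest to miR-27b-3p was miR-194-5p (0.05), with 631, 425 and 625 RPM, and the next miR-384-5p (0.13). The nearest to miR-23b-3p was miR-146b-5p (0.07), with 441, 405 and 547 RPM, and the next miR-30a-5p (0.09). For the guides of the a cluster the nearest were miR-382-5p for miR-27a-3p (0.08), with 478, 279 and 567 RPM, and miR-485-5p for miR-23a-3p (0.12), with 35.4, 26.6 and 62.4 RPM. The next were miR-3068-5p (0.15) and miR-770-5p (0.15). With 3 libraries a course is only 2 steps, so such likeness is a description of these libraries.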
